A study of Mus musculus with 6 samples.

Results

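The genes described here are 54 components of the Wnt signalling pathway, out of 22180 genes measured in cultured mouse heart cells. They were chosen by a rule on gene symbols that uses no expression values. The gene family itself was picked with earlier results of these data known, the value of the inhibitor gene Wif1 among them. They comprise 19 Wnt ligands, 3 genes of ligand processing, 4 R-spondins, 10 Frizzled receptors with the co-receptors Lrp5 and Lrp6, 9 secreted inhibitors, and 6 genes of β-catenin and its nuclear partners. The symbol rule also took in Fzd10os, a long non-coding RNA gene next to Fzd10, which is kept apart from the receptors below. Tcf7, another transcription factor named in the rule, was not analysed here.

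Cells with and without FGF21 were compared. All were cardiomyocytes of C57BL/6 mice aged 1 day, enriched by letting other cells attach first, and then held for 12 h in hypoxia (2% oxygen, 5% CO2 and 93% N2). FGF21 was present at 1 μg/ml in 3 samples and absent from 3 control samples, with 1 Affymetrix Mouse Gene ST array per sample. FGF21 is a secreted hormone of the fibroblast growth factor family. Hypoxia was common to both groups, and its own effect was not analysed here. The titles call the samples biological replicates, but do not say whether they came from separate litters or cultures, so the p-values rest on the spread among these 6 samples, some of which may be technical.

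Wnt proteins are secreted lipid-modified ligands. They bind Frizzled receptors, and in the canonical branch also LRP5 or LRP6, which stops the AXIN and APC complex from marking β-catenin for destruction and lets β-catenin act with TCF and LEF factors on target genes. Secreted inhibitors bind either the ligands (WIF1 and the SFRP family) or the LRP co-receptors (DKK1), and R-spondins strengthen the signal by keeping receptors at the cell surface. In the developing heart the pathway promotes or restrains cardiac differentiation depending on the stage.

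The Wnt inhibitor gene Wif1 had the largest difference of the 54 members, 1.38-fold lower with FGF21, and the 19 ligand and 10 Frizzled genes held none with an unadjusted p under 0.05. Values are log2 expression after robust multi-array averaging (RMA), and differences are with FGF21 minus control. No member passed limma at a Benjamini-Hochberg adjusted p under 0.05 over all genes (0 of 54, where 0% of all genes passed). At an adjusted p under 0.1 there was 1 member, Wif1, against 0.126% of all genes. At an unadjusted p under 0.05 there were 4 members (7.41%), against 11.7% of all genes. Of these, Sfrp1 and Tcf7l1 were higher with FGF21 (2 members, or 3.70%, against 6.59% of genes) and Wif1 and Fzd10os were lower (2 members, against 5.11% of genes). The share of members was below that of all genes.

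The groups did not overlap for 7 members (13.0%), against 17.1% of all genes. Sfrp1, Tcf7l1 and Wls were higher in every FGF21 array (3 members, against 8.99% of genes). Wif1, Wnt2, Fzd10 and Fzd10os were lower in every FGF21 array (4 members, against 8.14%). The median difference was -0.0140 over the 54 members and -0.00558 over all genes. With no threshold 25 members were higher and 29 lower, where 47.8% of all genes were higher. The 95% interval had a median half-width of 0.17 on the log2 scale. For 53 of the 54 members (98.1%) it lay inside a 1.5-fold change in either direction, against 98.8% of all genes. Wif1 was the member outside.

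**Figure D1:**
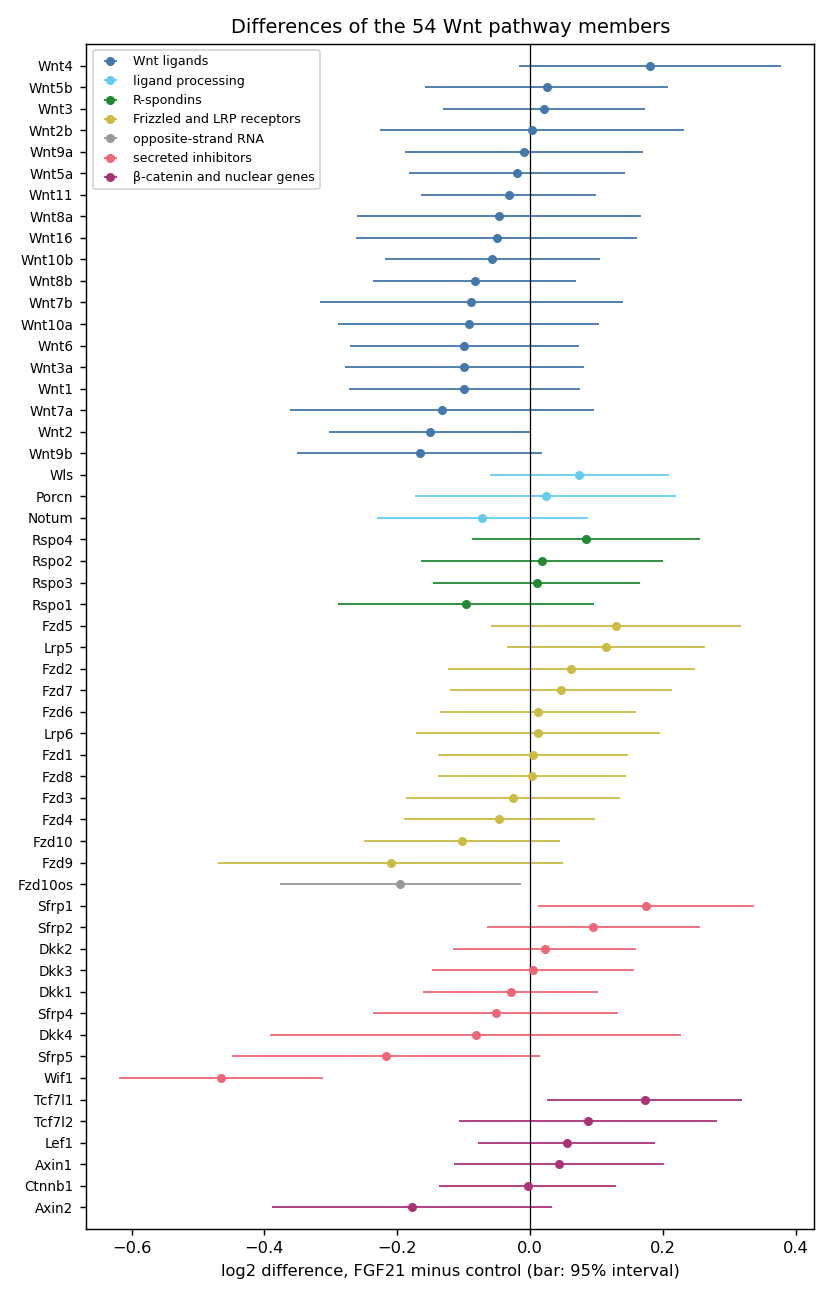
Log2 difference with FGF21 minus control for each of the 54 members, grouped by role and ordered within each role; points are estimates and bars are 95% intervals from limma (n = 3 arrays per group). Wif1 lies farthest from 0, at -0.47, and most intervals include 0.

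Wif1 encodes Wnt inhibitory factor 1, a secreted protein that binds Wnt ligands outside the cell. Its feature, 17237701, read 6.34, 6.24 and 6.43 in the FGF21 arrays, against 6.81, 6.76 and 6.83 in the control arrays. Every FGF21 value lay below every control value, and the gap between the groups was wider than the spread within either. The means were 6.34 ± 0.0937 with FGF21 and 6.80 ± 0.0352 in controls (SD, n = 3 each). The difference was -0.47 ± 0.07 (SE), a 1.38-fold lower level with a 95% interval of 0.651 to 0.806 of the control level. Limma gave an unadjusted p of 5.48e-05, rank 16 among all genes, and an adjusted p of 0.0743. The exact two-sided permutation test over the 6 arrays gave p = 0.1, the smallest it allows for 3 against 3. The adjusted p of limma was 0.0260 when genes below the median level of all genes were left out, and lay between 0.0260 and 0.387 over the 15 settings run for this gene.

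Some markers of vessel cells were lower with FGF21 too. Of 15 endothelial markers, 8 were lower and 1 higher at an unadjusted p under 0.05, against 5.11% and 6.59% of all genes, with a median difference of -0.22. Kdr was at -0.61, Cdh5 at -0.44, Erg at -0.35 and Pecam1 at -0.32, whereas Ptprb, the higher one, was at 0.17, Eng at 0.07 and Tek at 0.00. Their mean level per array ran from 7.28 to 7.47 with FGF21, against 7.53 to 7.70 in controls. Of 11 smooth muscle and pericyte markers, 4 were lower and 1 higher, and their mean ran from 8.62 to 8.72 with FGF21, against 8.76 to 8.96 in controls. The lower ones of that list were Kcnj8, at -0.65, Rgs5, at -0.49, Abcc9, at -0.45, and Mcam, at -0.38. Myh11 was the higher one, at 0.16, and Pdgfrb, Cspg4, Notch3, Acta2 and Tagln lay between -0.04 and 0.06. Control replicate 1 stood above the other controls for some of these genes. Abcc9 read 10.50 there, against 9.99 and 9.97, Kdr 8.10, against 7.60 and 7.36, and Mcam 8.85, against 8.47 and 8.25. The cardiomyocyte markers Ttn, at 10.84 against 10.37 and 10.39, and Ryr2, at 11.17 against 10.75 and 10.82, were also higher in that array. Myl3, at 10.77 against 10.80 and 10.78, was not. The cell type that gave the Abcc9 signal was not determined. The Kcnj8 controls read 7.96, 8.01 and 7.75, and the Rgs5 controls 8.86, 8.86 and 8.81. FGF21 replicate 1 stood below the other FGF21 arrays for some genes. Rgs5 read 7.92 there, against 8.53 and 8.60, Cdh5 8.99, against 9.39 and 9.36, and Pecam1 7.96, against 8.29 and 8.29. Mcam, at 8.12 against 8.18 and 8.13, had no such gap. The endothelial mean was 7.28 in that array, against 7.47 in each other FGF21 array and 7.53 in control replicate 3. No marker is at 0 on this scale, the part of these cells in the Wif1 difference was not tested, and in a bulk sample fewer cells of a type cannot be told apart from less RNA per cell.

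Upstream sequence is shown for Wif1, the member that differed most, for Tcf7l1, the factor gene that was higher, and for Axin2, the best known feedback target of β-catenin among the members. Each is the 250 bases before the start site from RefSeq (GRCm38.p6), 5′ to 3′ on the strand of the gene, with matches to the motifs named below in capitals.
Wif1 (chr10:121033754-121034003, plus strand): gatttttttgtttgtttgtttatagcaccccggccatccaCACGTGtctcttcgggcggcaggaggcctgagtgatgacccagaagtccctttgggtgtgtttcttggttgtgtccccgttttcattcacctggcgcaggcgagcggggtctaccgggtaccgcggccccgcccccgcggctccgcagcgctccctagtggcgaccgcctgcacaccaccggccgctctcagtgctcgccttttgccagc
Tcf7l1 (chr6:72789046-72789295, minus strand): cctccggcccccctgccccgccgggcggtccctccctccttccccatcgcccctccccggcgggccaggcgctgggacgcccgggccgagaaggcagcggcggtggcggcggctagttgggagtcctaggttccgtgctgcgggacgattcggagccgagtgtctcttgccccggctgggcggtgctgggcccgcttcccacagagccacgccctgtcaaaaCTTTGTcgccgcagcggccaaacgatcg
Axin2 (chr11:108920099-108920348, plus strand): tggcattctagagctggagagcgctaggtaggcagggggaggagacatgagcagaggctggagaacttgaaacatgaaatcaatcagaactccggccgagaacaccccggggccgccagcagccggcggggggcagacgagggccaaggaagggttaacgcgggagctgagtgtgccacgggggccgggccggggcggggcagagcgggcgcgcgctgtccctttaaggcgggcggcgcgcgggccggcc

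Both strands were searched for CTTTGA, the core bound by TCF and LEF factors, and for its variant CTTTGT. The core of hypoxia response elements, ACGTG, was searched too. The last motif was the E-box CACGTG, which contains the hypoxia core on each strand. RefSeq gave 42 windows for 34 of the 54 members. CTTTGA was in 5 of these windows (11.9%), against 13.8% of all 32851 windows, and CTTTGT in 8 (19%), against 16.5%. ACGTG was in 9 windows (21.4%), against 16.6%, and CACGTG in 5 (11.9%), against 6.02%. The Wif1 window held CACGTG at positions -210 to -205 from the start site and neither TCF motif. The Tcf7l1 window held CTTTGT at -28 to -23, and the Axin2 window held none of the motifs. A match is a description of the letters and not of binding.

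No other secreted inhibitor was lower at an unadjusted p under 0.05, and Sfrp1 was higher. Sfrp1, a decoy that carries a Frizzled-like domain, read 9.26, 9.04 and 9.10 with FGF21, against 8.96, 9.004 and 8.92 in controls. The groups did not overlap, and FGF21 replicate 1 stood apart as the highest array. The difference was 0.17 ± 0.07 (SE), with an unadjusted p of 0.0385 and an adjusted p of 0.397 by limma. It was 0.11 without FGF21 replicate 1, with an unadjusted p of 0.142, and 0.11 after quantile normalization was applied again. The unadjusted p was also above 0.05 without FGF21 replicate 3 (0.0592), control replicate 1 (0.0724) or control replicate 3 (0.104).

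Sfrp5, at -0.22 ± 0.10 (SE), had the lowest difference after Wif1 in its role, with overlapping groups. Its arrays read 4.84, 4.84 and 4.77 with FGF21, against 4.78, 5.10 and 5.23 in controls, so control replicates 2 and 3 stood above all the other arrays. Sfrp2 differed by 0.10 and Sfrp4 by -0.05, both with overlapping groups. The Dickkopf genes lay close to 0: Dkk1, whose product blocks LRP5 and LRP6, differed by -0.03 ± 0.06 (SE). Dkk2 differed by 0.02, Dkk3 by 0.00 and Dkk4 by -0.08. Control replicate 3 of Dkk4 read 6.70, against 6.15 and 6.18 in the other controls. Over the 9 inhibitors 4 were higher and 5 lower, and 1 in each direction had an unadjusted p under 0.05. Frzb, a further member of the SFRP family listed outside the symbol rule, was higher by 0.19 ± 0.08 (SE; unadjusted p of 0.0344, adjusted p of 0.388).

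Some markers of the epicardium and mesothelium were higher with FGF21. Of 11 such markers, 4 were higher at an unadjusted p under 0.05, against 6.59% of all genes, and none lower, with a mean level per array from 7.66 to 7.77 with FGF21, against 7.55 to 7.65 in controls. Krt19 was at 0.31, Msln at 0.22, Upk1b at 0.17 and Lrrn4 at 0.20, whereas Wt1 was at -0.04, Krt18 at -0.05 and Aldh1a2 at -0.10. Their part in the Sfrp1 difference was not tested.

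**Figure D2:**
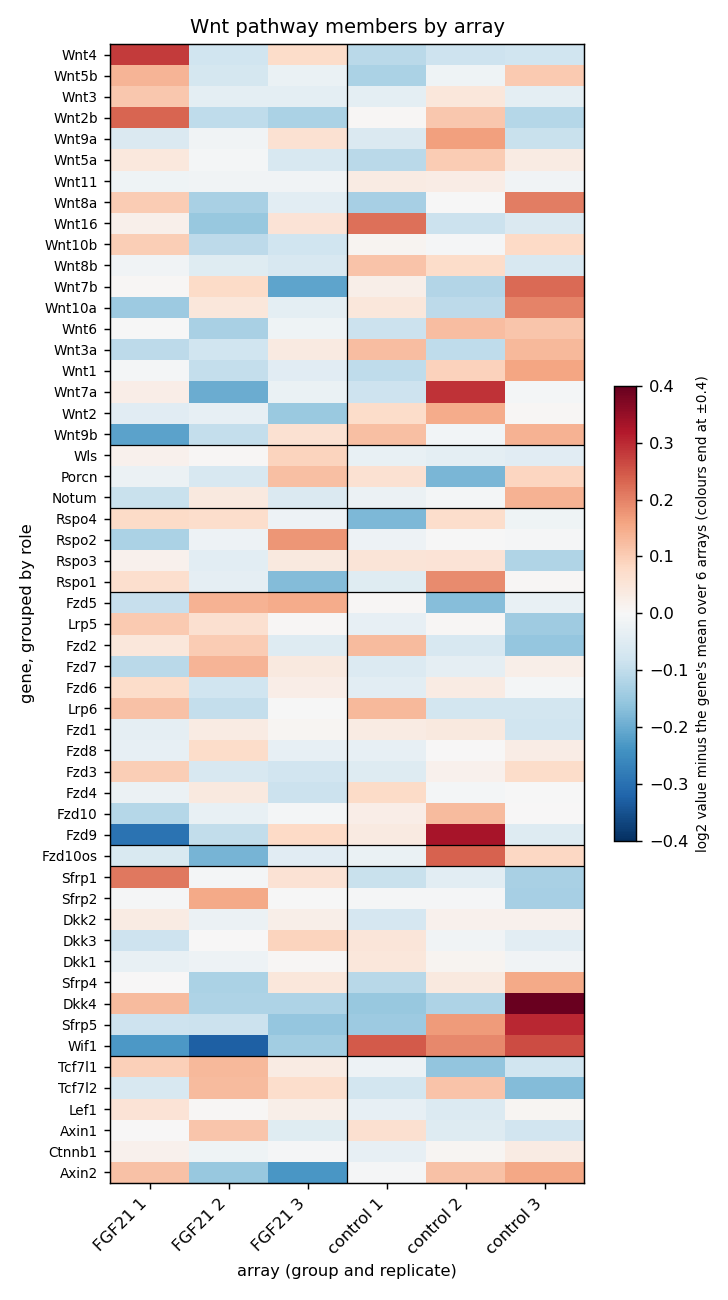
Log2 value of each member in each array minus the mean of that member over the 6 arrays, with the 3 FGF21 arrays on the left and the 3 control arrays on the right, grouped by role. The Wif1 row is low in all 3 FGF21 arrays and high in all 3 controls, and most other rows mix both colours within a group.

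The Wnt ligand genes were mostly slightly lower, with none past either threshold. Of 19 ligands 15 were lower and 4 higher with FGF21, at a median of -0.06, where 52.2% of all genes were lower. Most ligands were dim, with 3 of 19 at or above the median level of all genes. The share lower among genes of a like level was not computed. After each array was centred on its median, or quantile normalization was applied again, 12 of 19 were lower, at a median of -0.02 in either case. Of all genes 38.2% were lower after centring, at a median of 0.03, and 50.7% after quantile normalization. Leaving out FGF21 replicate 1 gave a ligand median of -0.10, and leaving out FGF21 replicate 2 gave -0.03. The ligand mean per array ran from 5.77 to 5.86 with FGF21, against 5.83 to 5.89 in controls. These ranges overlap through FGF21 replicate 1.

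Wnt2, a ligand of the canonical branch, read 5.68, 5.69 and 5.58 with FGF21, against 5.80, 5.87 and 5.73 in controls. Its groups did not overlap, and its difference was -0.15 ± 0.07 (SE; unadjusted p of 0.0502, adjusted p of 0.427). It was named here after its values were seen. Wnt4 had the highest difference of the ligands, 0.18 ± 0.09 (SE), with overlapping groups. Its arrays read 6.24, 5.88 and 6.03 with FGF21, against 5.85, 5.88 and 5.88 in controls, so FGF21 replicates 1 and 3 stood above all controls. Wnt9b had the lowest, -0.17 ± 0.08 (SE), with overlapping groups. Wnt5a and Wnt11, known for signalling without β-catenin, differed by -0.02 ± 0.07 and -0.03 ± 0.06 (SE). The remaining ligands lay between -0.13, for Wnt7a, and 0.02, for Wnt5b.

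Several ligand genes are neighbours on a chromosome, and their values stood as follows. Wnt6 differed by -0.10 and its neighbour Wnt10a by -0.09. Wnt1 differed by -0.10 and its neighbour Wnt10b by -0.06. Wnt3a was at -0.10 and Wnt9a beside it at -0.01, and Wnt9b was at -0.17 and Wnt3 beside it at 0.02. None of these pairs held a member with an unadjusted p under 0.05.

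Genes that make, carry and remove the lipid-bearing ligand did not differ past the threshold in the brightest feature of each. Wls, the carrier that takes Wnt proteins to the cell surface, read 9.71, 9.69 and 9.78 with FGF21, against 9.66, 9.65 and 9.65 in controls. The groups did not overlap, but by a small margin: the difference was 0.07 ± 0.06 (SE; unadjusted p of 0.246). Porcn, which attaches the lipid, differed by 0.02 ± 0.09 (SE). Notum, the extracellular enzyme that removes it, differed by -0.07 ± 0.07 (SE) in its brighter feature. The dimmer feature of Notum differed by -0.30 ± 0.08 (SE), in the same direction but by more. Its unadjusted limma p was 0.00402, with an adjusted p of 0.443 over all rows. The gap between the 2 features was not tested. The R-spondin genes ran from -0.10 for Rspo1 to 0.08 for Rspo4, with overlapping groups in all 4.

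The receptor genes showed little difference. Of 12 receptors 8 were higher and 4 lower, at a median of 0.01, and 0 had an unadjusted p under 0.05. The direction depended on the scaling, since 8 of 12 were lower after quantile normalization was applied again. Lrp5 read 9.20, 9.17 and 9.10 with FGF21, against 9.07, 9.11 and 8.96 in controls, a difference of 0.11 ± 0.07 (SE) with groups that overlap by a hair. Lrp6 differed by 0.01 ± 0.08 (SE). Fzd1, Fzd4, Fzd6 and Fzd7 differed by 0.00, -0.05, 0.01 and 0.05, and their intervals all lay between -0.19 and 0.21.

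Fzd5 had the highest difference of the receptors, 0.13 ± 0.08 (SE), and Fzd9 the lowest, -0.21 ± 0.12 (SE), both with overlapping groups. Fzd9 spread widely, at 5.67, 5.86 and 6.04 with FGF21, against 6.00, 6.29 and 5.91 in controls. The neighbours Fzd10os and Fzd10 were both lower in every FGF21 array. Fzd10os read 5.91, 5.78 and 5.92 with FGF21, against 5.94, 6.21 and 6.05 in controls, a difference of -0.20 ± 0.08 (SE; unadjusted p of 0.0375, adjusted p of 0.394). It was -0.13 without control replicate 2, with an unadjusted p of 0.154, and the p was also above 0.05 without FGF21 replicate 2 (0.131) or control replicate 3 (0.0670). Quantile normalization applied again gave a limma p of 0.0654 for Fzd10os, and centring gave 0.0729. The p was under 0.05 in 6 of the 14 alternative settings that kept this gene. Fzd10 differed by -0.10 ± 0.07 (SE), at a level near the bottom of the scale of the arrays (means of 4.20 with FGF21 and 4.30 in controls).

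**Figure D3:**
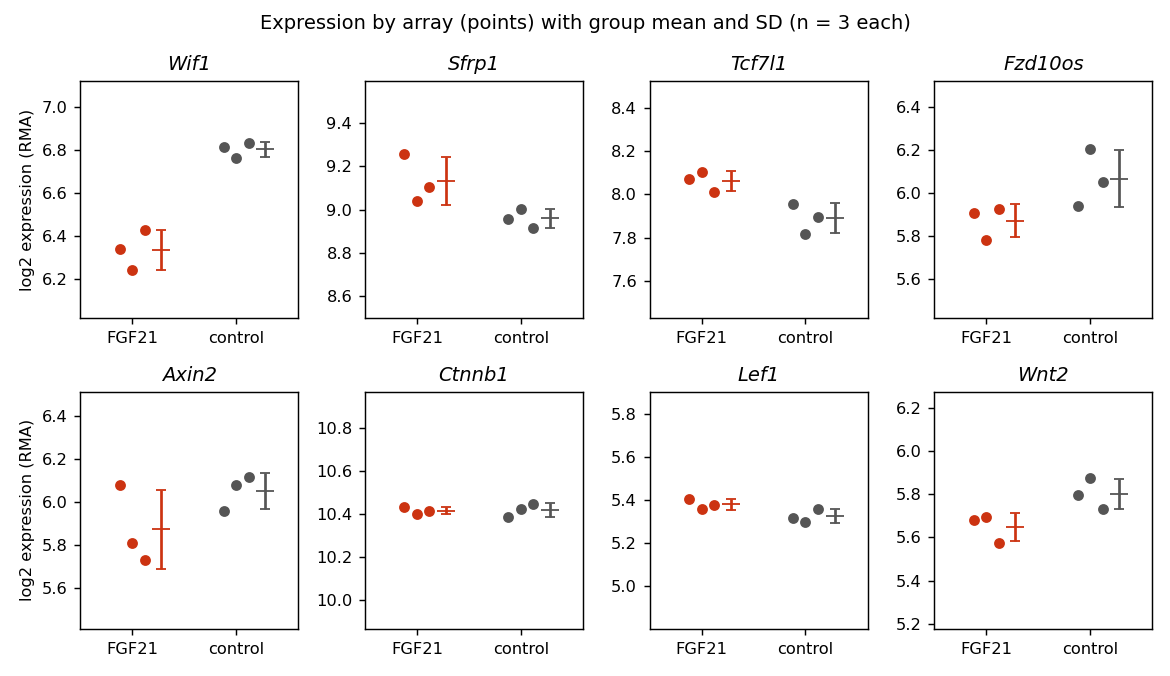
Log2 expression of 8 members in each array (points) with the mean and SD of each group (n = 3), FGF21 left and control right; every panel spans the same 1.1 log2 units. Wif1, Sfrp1, Tcf7l1, Fzd10os and Wnt2 have groups that do not overlap, and the Ctnnb1 points lie between 10.39 and 10.45 in both groups.

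The transcript of β-catenin itself differed little. Ctnnb1, which encodes β-catenin, read 10.43, 10.40 and 10.41 with FGF21, against 10.39, 10.42 and 10.45 in controls. The difference was -0.00 ± 0.06 (SE), with a 95% interval from -0.14 to 0.13, so a change of the transcript beyond about that size lies outside the interval; the protein was not measured. Axin1, the scaffold of the destruction complex, differed by 0.04 ± 0.07 (SE).

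Axin2, a second scaffold whose transcription rises with β-catenin activity, read 6.08, 5.81 and 5.73 with FGF21, against 5.96, 6.08 and 6.12 in controls. The groups overlapped through FGF21 replicate 1, and the difference was -0.18 ± 0.09 (SE; unadjusted p of 0.0889, adjusted p of 0.501). It was -0.28 without FGF21 replicate 1, with an unadjusted p of 0.00597, and -0.11 without FGF21 replicate 3. A dimmer feature of Axin2 differed by -0.00 ± 0.07 (SE). Neither feature had an unadjusted limma p under 0.05, and the gap between them was not tested. Lef1, a factor gene that is itself a target in many tissues, read 5.40, 5.36 and 5.38 with FGF21, against 5.32, 5.30 and 5.36 in controls, a difference of 0.06 ± 0.06 (SE) with groups that just overlap.

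Tcf7l1, the member of the TCF family known mainly as a repressor, read 8.07, 8.11 and 8.01 with FGF21, against 7.96, 7.82 and 7.90 in controls. The groups did not overlap. The difference was 0.17 ± 0.07 (SE; unadjusted p of 0.0260, adjusted p of 0.361), and it was 0.12 after quantile normalization was applied again, with an unadjusted p of 0.126. The unadjusted p of limma was also above 0.05 without FGF21 replicate 1 (0.0538), FGF21 replicate 2 (0.0803) or control replicate 2 (0.0950). Tcf7l2, its relative with both activating and repressing roles, differed by 0.09 ± 0.09 (SE) with overlapping groups.

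**Figure D4:**
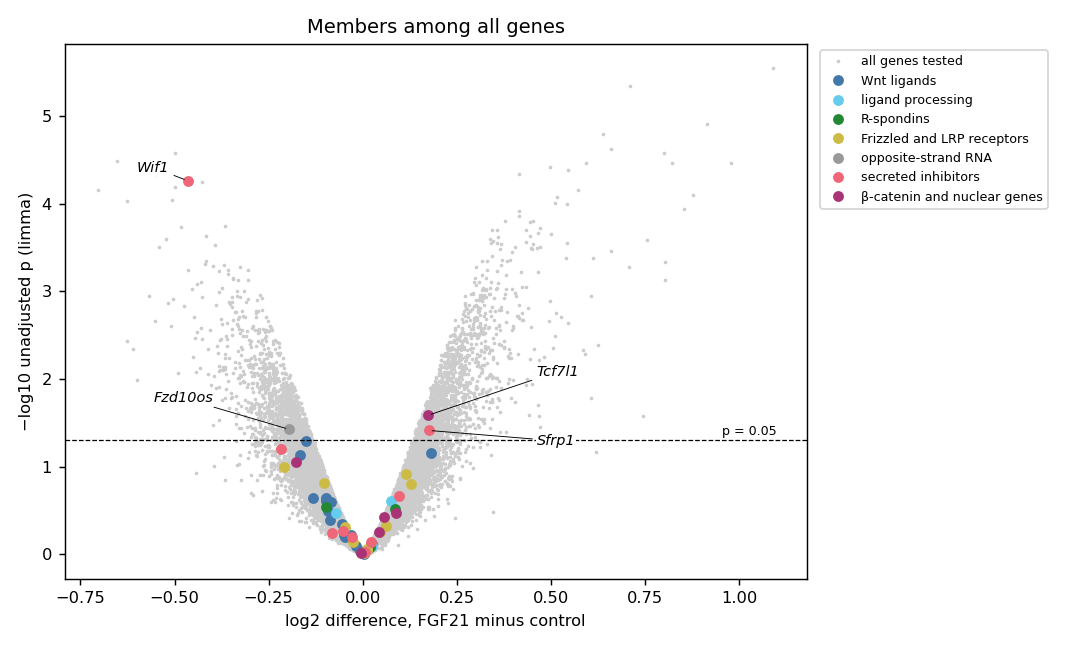
Each point is a gene, placed by its log2 difference with FGF21 minus control and by the −log10 of its unadjusted limma p; grey points are all 22180 genes and coloured points the 54 members by role. The dashed line marks an unadjusted p of 0.05; 4 members lie above it, Wif1 the highest of them.

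Other genes of the pathway, and genes known as β-catenin targets, came from lists that do not follow the symbol rule. Of the 96 measured that are not members, 12 were higher and 2 lower at an unadjusted limma p under 0.05. At an adjusted p under 0.05 there were 0. The target list alone, given in the next paragraph, held 6 of the higher ones and the 2 lower ones. Over all genes 6.59% were higher and 5.11% lower at that unadjusted p. Of 19 nuclear co-factors of TCF and β-catenin, 15 lay at or above the median level of all genes. Their directions after centring or quantile normalization were not counted. As reported, these co-factors were higher in 16 of 19 cases with no threshold, at a median of 0.04. Of all genes, bright and dim, 47.8% were higher. Genes of a like level were not taken apart for this list. Of the 19 co-factors, 3 were higher at an unadjusted p under 0.05. They were Ctbp1, a co-repressor, by 0.26 ± 0.07 (SE), Bcl9l, a β-catenin co-activator, by 0.22 ± 0.09, and Tle3, a Groucho-type co-repressor, by 0.17 ± 0.06. With an array left out this count ran from 1, without FGF21 replicate 2 or control replicate 3, to 5, without control replicate 2. In the list of β-catenin destruction and its control, 1 of 16 was higher, Dact1, a regulator of Dishevelled, by 0.21 ± 0.08 (SE). With an array left out the count of that list was 0 without FGF21 replicate 1, FGF21 replicate 2 or control replicate 3, 2 without control replicate 2 and 4 without FGF21 replicate 3. Among other secreted modulators 2 of 12 were higher, Frzb and Tinagl1, a matrix protein gene, at 0.27 ± 0.07 (SE). Leaving out FGF21 replicate 1 gave a count of 4, and leaving out FGF21 replicate 2, FGF21 replicate 3, control replicate 1 or control replicate 2 gave 1 each time. Neither the 12 co-receptors and non-canonical receptors nor the 15 genes of Dishevelled and planar polarity held a gene with an unadjusted p under 0.05.

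Genes known as β-catenin targets in other tissues went in both directions. Of 32 measured, 6 were higher and 2 lower at an unadjusted p under 0.05, at a median of -0.02, against 6.59% and 5.11% of all genes, and 5 of the 32 are also members. The higher ones of smallest p were Ccnd1, a cyclin gene, at 0.46 ± 0.09 (SE), Snai2, a transcriptional repressor gene, at 0.31 ± 0.08, Myc at 0.29 ± 0.08, and Cd44, a hyaluronan receptor gene, at 0.25 ± 0.07. These 4 genes respond to many other pathways. The lower ones were Tnfrsf19, a receptor gene, at -0.18 ± 0.06 (SE), and Cldn1, a tight junction gene, at -0.15 ± 0.07. Cldn1 had an unadjusted limma p of 0.0499, and its groups touched at 5.51. Met, among the higher ones, had an unadjusted limma p of 0.0488 with overlapping groups. With an array left out the count of this list, 8 as reported, ran from 6 to 10. Among feedback targets closer to the pathway, Nkd1 differed by 0.17 ± 0.08 (SE; unadjusted p of 0.0674), Rnf43 by -0.15 ± 0.08 (0.0764), Apcdd1 by -0.14 ± 0.09 (0.121), Znrf3 by -0.06 ± 0.07 (0.398) and Axin2 as above.

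The arrays and the cell type were checked once for all of these results. Any pair of arrays correlated at 0.993 to 0.997 across genes. Array medians were 5.76 to 5.79 with FGF21, against 5.81 to 5.83 in controls. The cardiomyocyte markers were bright, with Myh6 at 11.9 with FGF21 and 12.0 in controls, and none of the 12 had an unadjusted p under 0.05 (median difference -0.02). Control replicate 1 stood apart, with a mean over these markers of 11.03, against 10.83 to 10.88 in the other arrays. Fibroblast genes were bright too, with Col1a1 at 11.9 with FGF21 and 12.0 in controls, and none of those 12 had an unadjusted p under 0.05 (median 0.02). Of 11 leukocyte markers 1 was higher and 1 lower, of 7 Schwann and neural markers 1 was higher and 1 lower, and of 2 erythroid markers 1 was lower. The cell type that gave each Wnt transcript was not determined.

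**Figure D5:**
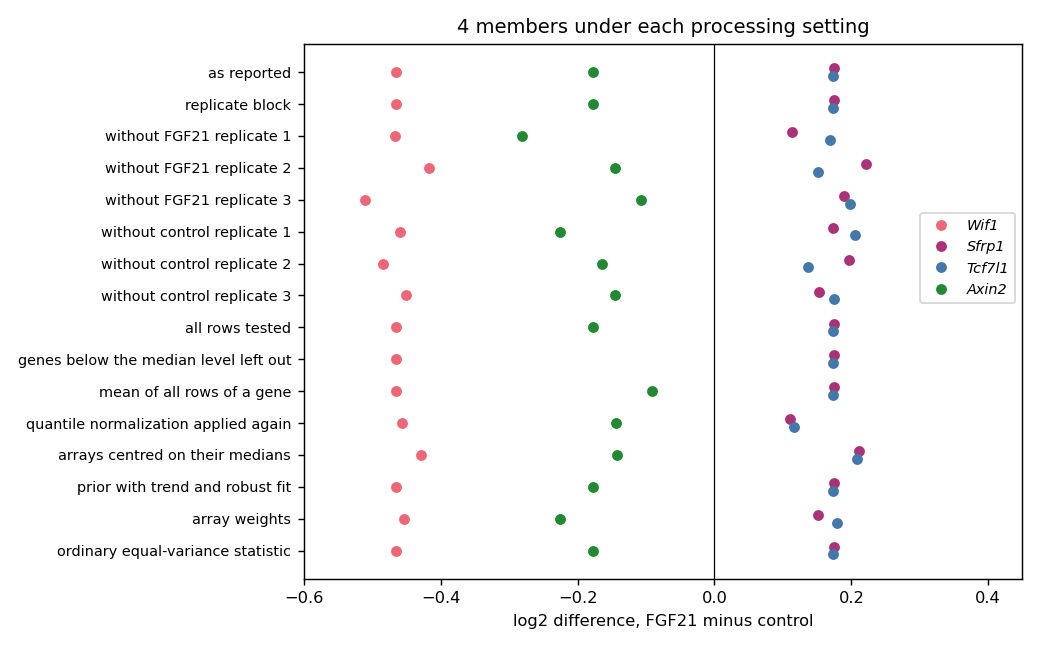
Log2 difference with FGF21 minus control for Wif1, Sfrp1, Tcf7l1 and Axin2 under each processing setting, including the fits that leave out an array. Wif1 stays between -0.51 and -0.42, whereas Axin2 runs from -0.28 to -0.09; it has no point where genes below the median level are left out.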

How the data were processed

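The deposited values are log2 expression per array feature, which the authors computed by RMA; the submitters' processing notes name R 3.2.2 and affy. RMA equalises array distributions and compresses differences of dim genes. The sources used here name no chip definition or build, so gene coordinates are given only for RefSeq sequences.

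The table had 41345 rows. Of these, 23521 had 1 gene symbol, 1814 had several and 16010 were not named. The brightest row by mean was kept for each gene (1082 genes had more), leaving 22180. All 54 members matched RefSeq by gene number, and 4 had 2 rows.

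Groups came from sample titles. The fit used limma 3.58.1 in R 4.3.3 (lmFit, eBayes, no covariate), two-sided, with Benjamini-Hochberg adjustment over all genes, and was tested on simulated data. No detection calls were used, and 24 members lay at or above the median level of all genes. The number of arrays limits the precision.

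The member rule reads only symbols, but this gene family and the lists were picked with earlier results of these data known. The value of Wif1 was among those earlier results. Values in every array are given for members with an unadjusted p under 0.05, or with groups apart by at least 0.2, and for Wif1, Ctnnb1, Axin2 and Lef1; other members shown in this way were picked after their values were seen. The extreme members of each role are named, and up to 4 genes of smallest p per pathway list and 3 per marker list, plus the marker written first; further list genes were picked after their values were seen. Lists covered other receptors, modulators, planar polarity, β-catenin destruction, co-factors and targets, and markers of cardiomyocytes, fibroblasts, endothelium, smooth muscle and pericytes, epicardium, leukocytes, Schwann cells and erythroid cells. Alternatives were a replicate block, each array left out, all rows, a filter on dim genes, row means, quantile normalization, median centring, a trend and robust prior, array weights, an ordinary equal-variance statistic and other thresholds.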

Additional observations from a re-analysis of the deposited data

How the results depend on the processing

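Wif1 kept its direction in all 15 settings, at -0.51 to -0.42, with unadjusted p from 3.66e-05 to 0.00129. It passed limma over all genes (adjusted p of 0.0260, difference -0.47) when genes below the median level were left out, a setting with fewer genes tested, so the count of members past the threshold was then 1; it was also 1 at an adjusted p under 0.1. Over all genes the calls were 0 as reported, 58 under that filter, 16 with the trend and robust prior, 12 after centring, 5 after quantile normalization, 2 each with array weights, row means or FGF21 replicate 1 left out, and 0 in the other settings. The 4 members at an unadjusted p under 0.05 became 2 with all rows tested, 2 with quantile normalization applied again, 1 at an unadjusted p under 0.01, and 3 to 6 with an array left out; Wif1 was among them each time. Of all 22180 genes, 2594 had an unadjusted limma p under 0.05 as reported. This became 2143 with quantile normalization applied again and 1710 to 3028 with an array left out. With all 41345 rows tested it was 3808 rows. Members with groups that do not overlap were 7, became 4 of the 24 members left by the filter, and 11 to 13 with an array left out. Fewer arrays make separation easier, and the share of all genes was not computed in these settings. These counts are therefore no result about the members. The median difference of the members was 0.01 (0.0121) under the filter, 0.02 (0.0221) after centring, against a median of 0.03 over all genes, and -0.0397 to -0.0027 with an array left out. The pathway lists, target genes included, held 14 genes at an unadjusted limma p under 0.05. This became 7 at 0.01, and 9 to 15 with an array left out. The lowest count came without FGF21 replicate 2 or control replicate 3. Ctnnb1 turned to 0.0046 without FGF21 replicate 2, 0.0111 without control replicate 3 and 0.0323 after centring, and ran from -0.0209 to 0.0111 with an array left out. A replicate block gave 4 members, with Wnt2 in place of Fzd10os, and an adjusted p of 0.0668 for Wif1. The numbers were not taken as pairs, since the labels name no pairing. The deviations of arrays with the same number had correlations of 0.103, 0.158 and 0.00653. For 4 of 6 arrays the closest partner was that of the same number. These values do not decide whether the arrays were paired. Apart from the named reasons the cause was not tested. No signal over background was available, so how it limits the dim members was not tested.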

Other observations

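Some members had exactly the same value in several arrays. Wnt3 read 4.84 in 4 of the 6 arrays, Fzd8 6.36 in 3, Wnt11 5.98 in 3 and Dkk4 6.18 in 3. Equal values in 3 or more arrays occurred in 4 of 54 members (7.41%) and in 2.23% of all genes. The SD of Wnt11 was 0.0013 with FGF21 and 0.0275 in controls.

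The dimmer feature of Notum, which the choice of the brightest row leaves out, averaged 5.05 with FGF21 and 5.35 in controls, with an unadjusted limma p of 0.00402 and an adjusted p of 0.443 over all rows. Of the other genes with a second row, Lrp6 differed by 0.01 and -0.01 in its 2 features, and Sfrp2 by 0.10 and 0.06.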
